A study of Mus musculus with 8 samples.

Results

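Glypicans and syndecans are the main core proteins that carry heparan sulfate chains on the cell surface, and *Chst1* encodes a carbohydrate sulfotransferase. The data were described for 9 genes of these kinds, taken by symbol from the count files: the glypicans *Gpc1*, *Gpc3*, *Gpc4* and *Gpc6*, the syndecans *Sdc1*, *Sdc2*, *Sdc3* and *Sdc4*, and *Chst1*. They are 9 of the 24052 genes counted in each library. They were chosen by their levels in E6 and WT in these same libraries, so the comparison of the mutant with the wild type is given for them as a description, without a test.

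Glypicans are held in the outer leaflet of the plasma membrane by a glycosylphosphatidylinositol anchor, whereas syndecans cross the membrane once and have a short cytoplasmic tail that binds PDZ-domain proteins and kinases. Both carry heparan sulfate, a chain of alternating glucosamine and uronic acid units that is polymerized by Ext1 and Ext2, sulfated in the Golgi by Ndst, Hs2st, Hs6st and Hs3st enzymes, and trimmed outside the cell by Sulf1 and Sulf2. Through these chains the core proteins bind fibroblast growth factors, other growth factors, chemokines and matrix proteins, and take part in cell adhesion. Chst1 transfers sulfate to galactose in keratan sulfate and related glycans rather than to heparan sulfate.

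The libraries came from mTEC 3.10, a medullary thymic epithelial cell (mTEC) line from C57BL/6 mice, either wild type (WT) or clone E6, in which exon 3 of *Aire* had been edited with Crispr-Cas9. *Aire* encodes a regulator that lets mTECs transcribe many tissue-restricted genes. The sample labels give the genotype of E6 as Aire +/- and its source as Aire KO, while the methods of the study describe mutations on both alleles. A single clone stands for the mutant, so that the mutation and other features of this clone cannot be told apart.

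RNA of each cell type was sequenced before and after adhesion, that is without thymocytes or after 12 h of co-culture with 50 thymocytes per mTEC, followed by washing. There were 2 libraries per condition and 8 in all: 2 of WT before adhesion, 2 of WT after, 2 of E6 before and 2 of E6 after. All cells were at passage 2. The cells had been cultured for 24 h in replicate 2 of WT after adhesion and in replicate 1 of E6 before and of E6 after adhesion, and for 12 h in the other 5 libraries. The protocol text for E6 before adhesion speaks of co-culture, against the titles and source names, which were followed here. The replicates of WT after, E6 before and E6 after adhesion thus differed in culture time, and the spread between them includes that difference. For the 2 replicates of WT before adhesion, both at 12 h, nothing in the labels says that they were separate cultures. The spread between those may be technical.

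The libraries held between 13506610 and 20145154 counts on genes. *Aire* itself had at most 3 counts in any library, so the label of the mutant could not be checked by its level. Among 11 mTEC markers, *Epcam* (537 to 643 CPM, that is counts normalised to library size with the TMM method), *Krt8*, *Krt18*, *Krt14* and *Cdh1* were abundant in all 8 libraries, while *Krt5* (0.213 to 1.02 CPM), *Cldn3*, *Cd80* and *H2-Aa* were near 0. The 13 thymocyte markers analysed summed to 0.268 to 0.902 CPM in the 4 libraries before adhesion, to 11.7 to 15.0 CPM in WT after adhesion and to 81.5 to 100.2 CPM in E6 after adhesion. The 8 fibroblast markers summed to 1.23 to 3.40 CPM before and 5.71 to 19.3 CPM after adhesion, where *Thy1* and *Vim* were the 2 that rose, and *Thy1* is on the thymocyte list too. The 6 endothelial markers summed to at most 0.0693 CPM before adhesion, 0.142 to 0.290 CPM in WT after adhesion and 1.55 to 2.09 CPM in E6 after adhesion. Of these, *Pecam1* rose, from 0 in all 4 libraries before adhesion to 1.31 and 1.85 CPM in E6 after adhesion, while *Tie1* was at 0 throughout and *Cdh5* at or below 0.0693 CPM. Replicate 1 of WT after adhesion stood apart from the rest: genes took up 66.7% of its alignments and 75.7 to 78.8% of those of the 7 others, and its levels fell by 0.46 on the log2 scale per 10 points of GC content, against slopes of -0.02 to 0.13 elsewhere. Its values are therefore also given or left out separately below.

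For *Sdc3* and *Chst1*, which were both higher in E6, the 250 bases before the start site of RefSeq are shown because they differ in composition. In these sequences from GRCm38.p6 every CG dinucleotide is in capitals, and both genes lie on the plus strand. The window of *Sdc3* is chr4:130792287-130792536, which ends at the annotated start of the gene, and that of *Chst1* is chr2:92600867-92601116, which lies inside an intron of a longer GENCODE transcript.
Sdc3: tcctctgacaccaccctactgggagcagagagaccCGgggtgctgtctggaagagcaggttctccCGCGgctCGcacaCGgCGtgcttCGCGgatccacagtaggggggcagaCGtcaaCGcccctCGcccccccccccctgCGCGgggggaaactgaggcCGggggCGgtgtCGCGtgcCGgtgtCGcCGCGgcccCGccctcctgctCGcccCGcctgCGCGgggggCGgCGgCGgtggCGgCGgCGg
Chst1: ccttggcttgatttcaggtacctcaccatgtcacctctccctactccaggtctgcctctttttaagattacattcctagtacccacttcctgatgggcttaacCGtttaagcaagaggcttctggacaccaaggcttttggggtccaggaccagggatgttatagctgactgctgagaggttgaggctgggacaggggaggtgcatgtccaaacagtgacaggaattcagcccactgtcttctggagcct
The *Sdc3* window held 32 CG dinucleotides, and 4.58% of 32851 such windows held as many or more. The *Chst1* window held 1, and 92.1% of windows held at least as many. The median was 6. The motif GGGCGG, a GC box that binds factors of the Sp1 kind and contains 1 of the CG dinucleotides counted, was searched on both strands and matched 3 times before *Sdc3* and 0 times before *Chst1*. It was found in 32.7% of all windows. TATAAA, searched on both strands, was found in 12.4% of all windows and in none of the 6 available for the 9 genes.

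Of the 9 genes, 8 had enough counts to be tested, and *Gpc3* did not. *Gpc4* passed this filter through its WT libraries and *Chst1* through its E6 libraries. In E6, *Gpc4* mRNA was not detected, *Chst1* and *Sdc3* were many times higher than in WT, *Sdc1* was moderately higher, and *Gpc1*, *Gpc6*, *Sdc2* and *Sdc4* had levels that overlapped between the cell types. The 4 libraries of E6 and the 4 of WT did not overlap for 4 genes, of which *Gpc4* was lower and *Sdc1*, *Sdc3* and *Chst1* were higher in E6. Over all 11672 tested genes, 31.2% had no overlap, 15.7% being higher and 15.5% lower in E6. Since no library of either cell type overlapped for these 4 genes, none overlapped within either culture time, which is no further check. The median log2 fold change (FC) of the 8 genes was 0.18, beside -0.01 for all tested genes.

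**Figure D1:**
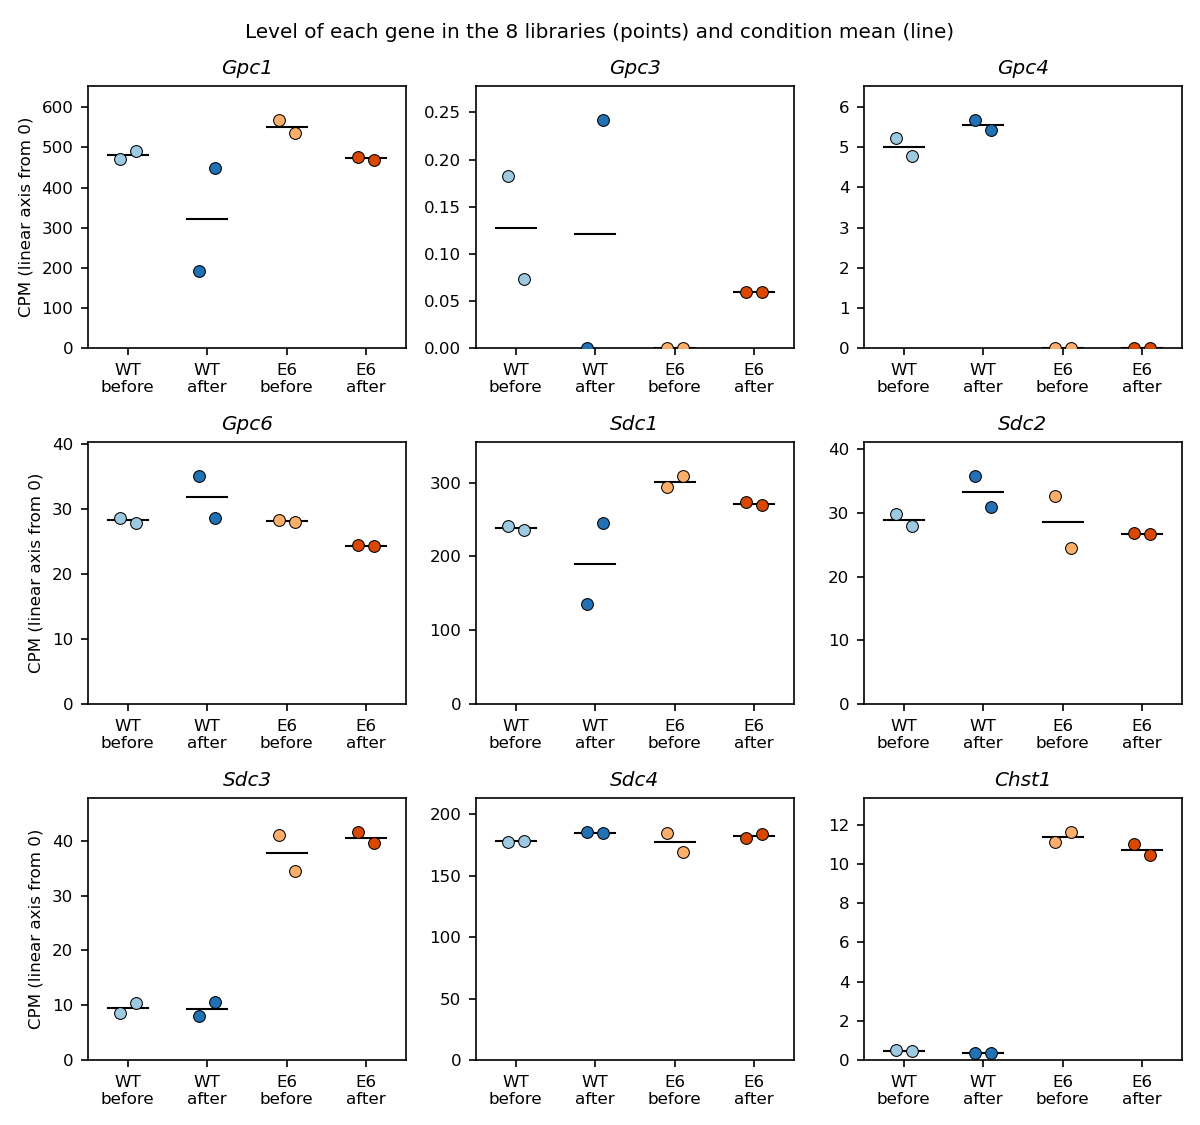
Level of each of the 9 genes in CPM, on linear axes from 0, in the 2 libraries of each of the 4 conditions (points, replicate 1 on the left) with the mean (line). *Gpc4* lies at 0 in the 4 E6 libraries, *Sdc3* and *Chst1* lie higher in all 4 E6 libraries than in any WT library, and replicate 1 of WT after adhesion lies low for *Gpc1* (192 CPM) and *Sdc1* (135 CPM).

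*Gpc4* encodes a glypican and lies on the minus strand of chromosome X, from 52053021 to 52165252 on GRCm38. Its level was 5.22 and 4.79 CPM in WT before adhesion, 5.67 and 5.42 CPM in WT after adhesion, and 0 in all 4 E6 libraries. All WT libraries held between 65 and 112 counts of it, and no E6 library held any. A count of 0 allows up to 3 counts per library, or at most 0.208 CPM in these 4 libraries, so that *Gpc4* was at least 25.4-fold lower in E6 than its mean of 5.28 ± 0.37 CPM (SD, n = 4) in WT. Such limits cover counting error only. In bulk RNA, fewer cells expressing a gene and less of its RNA per cell cannot be told apart.

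*Gpc3*, the neighbouring glypican gene on the same strand (chromosome X, 52272426 to 52613950), has its nearer end 107 kb from *Gpc4*. It had 3 and 1 counts in WT before adhesion, 0 and 5 in WT after adhesion, 0 and 0 in E6 before adhesion, and 1 and 1 in E6 after adhesion. These counts were too few to compare the groups. Of the annotated genes nearest to *Gpc4* with a row in the files, *Hs6st2*, *Usp26* and *1700080O16Rik* on one side had 0 counts in all 8 libraries. So had *Mir6384* and *Mir717* on the other side. The nearest tested genes, picked after their values were seen, lay farther away. *Mbnl3*, 846 kb from *Gpc4*, had 148 ± 43.9 CPM in WT and 107 ± 4.60 CPM in E6 (SD, n = 4 each), which did not pass (log2 FC -0.45, FDR 0.0898 by the quasi-likelihood test of edgeR, Benjamini-Hochberg adjusted). *Phf6*, 747 kb away on the other side, had 108 ± 17.4 CPM in WT and 77.2 ± 3.76 CPM in E6, and its log2 FC of -0.49 (FDR 0.0257, edgeR) stayed under the FC of 1.5 that was also required. *Mbnl3* and *Phf6* showed no difference of the size seen at *Gpc4*. The nearer genes had too few counts in WT to show a loss, so how far the loss of signal reaches around *Gpc4* was not tested.

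*Gpc1* encodes the glypican with the highest level per length of exon in these cells (chromosome 1, 92831645 to 92860779, plus strand). It had 471 and 490 CPM in WT before adhesion, 192 and 449 CPM in WT after adhesion, 568 and 536 CPM in E6 before adhesion, and 477 and 470 CPM in E6 after adhesion. Before adhesion both E6 libraries were higher than both WT libraries, whereas over all conditions the cell types overlapped. The log2 FC of E6 against WT was 0.38 with all libraries and 0.15 without replicate 1 of WT after adhesion, the only library under 449 CPM. Without replicate 2 of WT after adhesion, which leaves the low library alone in its condition, it was 0.76.

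*Gpc6*, a further glypican (chromosome 14, 116925315 to 117976544, plus strand), was found at 28.6 and 27.9 CPM in WT before adhesion, 35.0 and 28.6 CPM in WT after adhesion, 28.2 and 28.0 CPM in E6 before adhesion, and 24.4 and 24.3 CPM in E6 after adhesion. Its highest value was again that of replicate 1 of WT after adhesion. Before adhesion the 4 libraries lay within 1 CPM of one another, and the log2 FC of E6 against WT was -0.19 over both conditions and -0.10 without that replicate.

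*Sdc1*, the syndecan typical of epithelia and plasma cells (chromosome 12, 8771323 to 8793715, plus strand), had 241 and 235 CPM in WT before adhesion, 135 and 245 CPM in WT after adhesion, 294 and 309 CPM in E6 before adhesion, and 274 and 269 CPM in E6 after adhesion. All E6 libraries exceeded all WT libraries. The mean was 214 ± 52.7 CPM in WT and 286 ± 18.4 CPM in E6 (SD, n = 4 each), a log2 FC of 0.43, which was 0.26 without replicate 1 of WT after adhesion and 0.69 without replicate 2 of WT after adhesion.

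*Sdc2*, a syndecan usually found in mesenchymal cells (chromosome 15, 32920723 to 33034935, plus strand), had 29.9 and 27.9 CPM in WT before adhesion, 35.7 and 30.9 CPM in WT after adhesion, 32.6 and 24.5 CPM in E6 before adhesion, and 26.8 and 26.7 CPM in E6 after adhesion. The cell types overlapped, and the 2 E6 libraries before adhesion, which differed in culture time, lay farther apart than the cell type means of 31.1 ± 3.33 and 27.6 ± 3.47 CPM (SD, n = 4 each).

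*Sdc3*, the syndecan known best from neural tissue (chromosome 4, 130792537 to 130826319, plus strand), had 8.56 and 10.4 CPM in WT before adhesion, 8.01 and 10.6 CPM in WT after adhesion, 41.1 and 34.5 CPM in E6 before adhesion, and 41.6 and 39.6 CPM in E6 after adhesion. Its lowest E6 value was above its highest WT value. The mean rose from 9.40 ± 1.31 CPM in WT to 39.2 ± 3.23 CPM in E6 (SD, n = 4 each), which is 4.16-fold on the fitted scale. Before adhesion this was a log2 FC of 2.00, and after it one of 2.11. Its GC-rich upstream window is the first of the 2 sequences above.

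*Sdc4*, a widely expressed syndecan of focal adhesions (chromosome 2, 164424247 to 164443887, minus strand), was the steadiest of the 8 tested genes, with a coefficient of variation of 3.03% over the 8 libraries. It had 177 and 178 CPM in WT before adhesion, 185 and 184 CPM in WT after adhesion, 185 and 169 CPM in E6 before adhesion, and 180 and 184 CPM in E6 after adhesion. The cell types overlapped, and the log2 FC of E6 against WT was -0.01. *Sdc4* also kept 185 CPM in replicate 1 of WT after adhesion.

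*Chst1* (chromosome 2, 92599707 to 92615250, plus strand) had 0.486 and 0.442 CPM in WT before adhesion, 0.355 and 0.339 CPM in WT after adhesion, 11.1 and 11.6 CPM in E6 before adhesion, and 11.01 and 10.4 CPM in E6 after adhesion. These were 5 to 8 counts per WT library and 160 to 217 counts per E6 library, without overlap. The mean of 0.405 ± 0.0703 CPM in WT and 11.04 ± 0.480 CPM in E6 (SD, n = 4 each) differed 27.0-fold on the fitted scale, 24.0-fold before adhesion and 30.4-fold after adhesion. The WT side of this ratio rests on few counts.

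The 3 nearest genes with a row in the files on either side of *Chst1* included no DE mRNA, where DE (differentially expressed) means an FDR below 0.05 together with a 1.5-fold or larger change in either direction. *Slc35c1*, a GDP-fucose transporter gene 139 kb away, had 44.9 ± 5.34 CPM in WT and 61.0 ± 2.82 CPM in E6 (SD, n = 4 each), with a log2 FC of 0.45 (FDR 0.0111, the quasi-likelihood test of edgeR, Benjamini-Hochberg adjusted). *Syt13* and *Prdm11*, on the other side, had log2 FCs of -0.41 (FDR 0.0786, edgeR) and 0.78 (FDR 0.186, edgeR). *Mir7221* and *Mir7222* had 0 counts in every library, and *4631405J19Rik* had 0 to 5. No neighbour of *Chst1* thus showed a difference near its 27.0-fold.

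To compare genes with one another, CPM were divided by the length of the exons in kb. On this scale *Gpc1*, *Sdc4* and *Sdc1* made up most of the summed level of the 8 core proteins in both cell types. *Gpc1* took 34.0 ± 7.68% of the sum in WT and 37.6 ± 1.58% in E6, *Sdc1* took 25 ± 2.34% and 28.5 ± 1.16%, and *Sdc4* took 33.0 ± 7.495% and 26.8 ± 1.82% (SD, n = 4 each). The rest was shared by genes with small parts: *Sdc3* went from 0.715 ± 0.0909% in WT to 2.49 ± 0.257% in E6, and *Gpc4* from 0.929 ± 0.253% to 0. The gain of *Sdc3* and the absence of *Gpc4* therefore concerned a small part of the core protein mRNA. The sum was 222 ± 38.4 CPM per kb in WT and 264 ± 13.4 in E6 (SD, n = 4 each), and 241 ± 1.13 in WT without replicate 1 of WT after adhesion (n = 3). That library had the lowest sum, 164 CPM per kb, and the WT sums reached 243 while those of E6 began at 252.

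**Figure D2:**
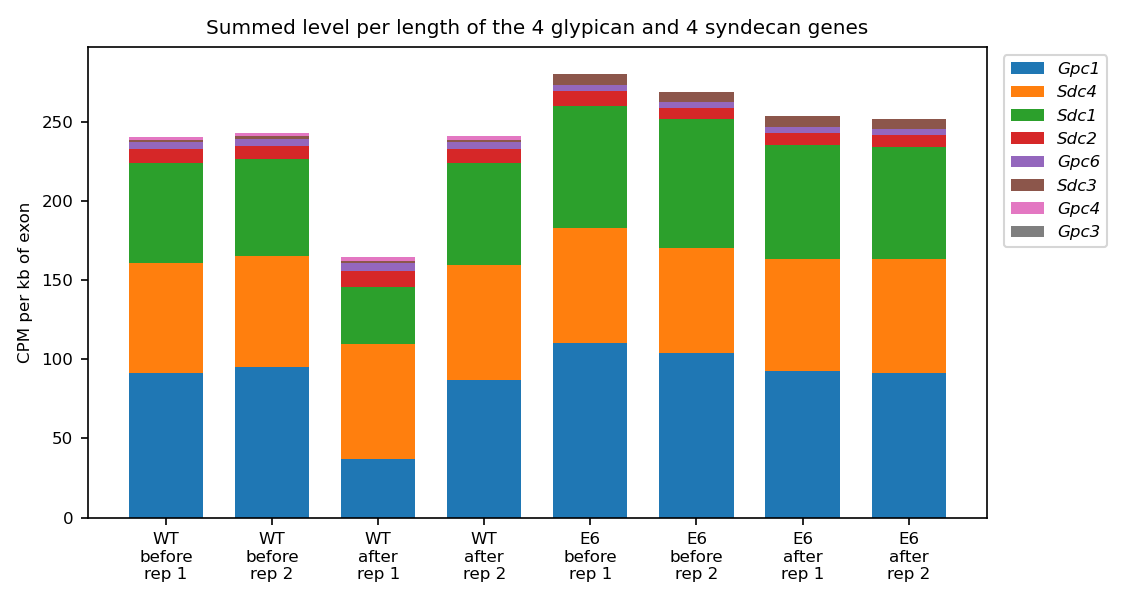
Summed level of the 4 glypican and 4 syndecan genes in each library, in CPM per kb of exon on a linear axis from 0, with 1 bar per library and 1 colour per gene. *Gpc1*, *Sdc4* and *Sdc1* form most of each bar, and the bar of replicate 1 of WT after adhesion is the lowest, at 164 CPM per kb.

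The order of the levels per kb differed between the cell types. In WT before adhesion it was *Gpc1* (93.1 CPM per kb), *Sdc4* (69.8), *Sdc1* (62.5), *Sdc2* (8.19), *Gpc6* (4.39), *Gpc4* (1.89), *Sdc3* (1.58), *Chst1* (0.173) and *Gpc3* (0.0475), and no neighbours in this order had overlapping libraries. In E6 before adhesion it was *Gpc1* (107 CPM per kb), *Sdc1* (79.1), *Sdc4* (69.5), *Sdc2* (8.09), *Sdc3* (6.32), *Gpc6* (4.38) and *Chst1* (4.24), with *Gpc3* and *Gpc4* at 0. *Sdc3* and *Chst1* thus moved up beside *Gpc6*, while *Sdc4* and *Sdc1* changed places. After adhesion, *Gpc1* overlapped with *Sdc4* and *Sdc1* in WT, and *Sdc4* with *Sdc1* in E6.

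Thymocyte adhesion was compared next, as a contrast that separates the libraries in another way than the cell type. None of the 8 tested genes was DE after adhesion against before, either averaged over both cell types, where 1.89% of all tested genes were, or within WT (0.0% of all tested genes), within E6 (2.0%), or in the difference of the adhesion effects between the cell types (0.0%). At an unadjusted p under 0.05, the quasi-likelihood test of edgeR called 0 of the 8 genes in each of these 4 comparisons. Of all tested genes it called 9.89%, 7.48%, 6.97% and 2.54%. *Gpc4*, with no counts in E6, could be called only within WT, so its result in the other comparisons was fixed in advance. DESeq2, at the thresholds for DE mRNAs, also called 0 of the 8, beside 2.89%, 0.568%, 2.54% and 0.0257%. The smallest FDR among them was 0.642 averaged, 0.62 in WT, 1.0 in E6 and 0.988 for the difference, by edgeR with adjustment over all 11672 genes. The 4 libraries after and the 4 before adhesion overlapped for all 8 genes, beside 5.52% of all tested genes without overlap. For *Gpc4*, at 0 in every E6 library, this overlap was fixed in advance.

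*Gpc1* had the largest adhesion difference, with a log2 FC in WT of -0.58 (95% interval -1.36 to 0.20) and in E6 of -0.22 (-0.999 to 0.56). Without replicate 1 of WT after adhesion the value in WT was -0.10, and without replicate 2 of WT after adhesion, which rests the condition on the low library alone, it was -1.34 and passed the test (FDR 4.35e-13, edgeR). In such fits the lone library is assumed to vary like those of the other conditions, so these FDRs hold no spread of WT after adhesion itself. *Sdc1* behaved alike in WT, with a log2 FC of -0.32 (-0.90 to 0.25), of 0.04 without replicate 1 and of -0.83 without replicate 2 (FDR 1.05e-09, edgeR). In the averaged comparison *Gpc1* was DE only without replicate 2 of WT after adhesion (log2 FC -0.77, FDR 2.41e-12, edgeR), and the difference of the adhesion effects was called for *Gpc1* and *Sdc1* only there.

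Averaged over the cell types, the adhesion log2 FC was -0.02 (95% interval -0.24 to 0.21) for *Gpc6*, 0.06 (-0.22 to 0.33) for *Sdc2*, 0.05 (-0.26 to 0.35) for *Sdc3* and 0.05 (-0.12 to 0.22) for *Sdc4*. *Chst1* had -0.08 (-0.45 to 0.29) in E6 and -0.42 in WT, where it had few counts. No interval is given for WT, since the one derived from the test statistic was too narrow for its unadjusted p of 0.444 (edgeR). For *Gpc4* a value could be had in WT alone, 0.15 (-0.45 to 0.74), as it had no counts in E6. The intervals of *Gpc6*, *Sdc2*, *Sdc3* and *Sdc4* exclude a 1.5-fold change in the averaged comparison, and those of *Gpc1*, *Sdc1* and *Chst1* do not.

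Within E6, *Gpc1*, *Gpc6*, *Sdc1* and *Chst1* had lower levels in both libraries after adhesion than in both before. Of all tested genes, 31.6% were lower after adhesion without overlap of the 2 and 2 libraries in E6. None of the 8 was higher in both, as 23.6% of all tested genes were. *Gpc4*, at 0 in E6, could be neither higher nor lower. Within WT, *Gpc4*, *Gpc6*, *Sdc2* and *Sdc4* were higher in both libraries after adhesion (16.6% of all tested genes) and *Gpc1* and *Chst1* lower in both (14.5%). *Gpc6* fell from 28.0 to 24.3 CPM between the 12 h libraries of E6 and from 28.2 to 24.4 CPM between the 24 h libraries, without passing the test. The difference of the *Gpc6* effect between the cell types, -0.38 (95% interval -0.83 to 0.07), did not pass the test (FDR 0.988, edgeR). The summed thymocyte markers were higher after adhesion, at 81.5 to 100.2 CPM in E6 and 11.7 to 15.0 CPM in WT, and their part in these values was not tested.

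**Figure D3:**
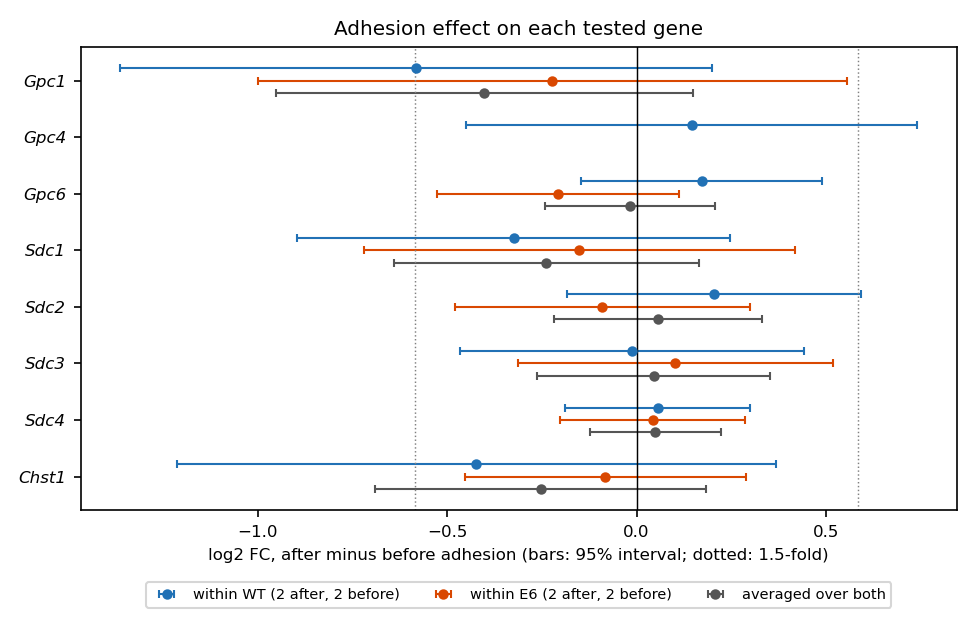
Log2 FC of adhesion (after minus before) for the 8 tested genes within WT, within E6 and averaged, with bars for the 95% interval from edgeR and dotted lines at a 1.5-fold change. All intervals include 0, and that of *Gpc1* in WT (-1.36 to 0.20) is among the widest. The drawn intervals of *Chst1* in WT and averaged are too narrow for its few counts in WT. *Gpc4* is shown for WT only, since it had no counts in E6.

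The heparan sulfate and sulfation genes around these core proteins were taken from 12 lists of 111 genes, of which 65 had enough counts to be tested. The lists were chosen with earlier results of these data known. Their shares of DE mRNAs are therefore a description, and an excess over all tested genes was not tested. Comparing E6 with WT averaged over both conditions, 17 of the 65 were DE (26.2%, beside 11.3% of all tested genes), with 11 higher and 6 lower in E6 (5.22% and 6.13% of all tested genes). Their median log2 FC was 0.16, beside -0.01 for all tested genes. Before adhesion 7 of the 65 were DE (10.8%, beside 5.01% of all tested genes), with 4 higher and 3 lower (2.45% and 2.56% of all tested genes). This count fell to 2 when any 1 of the 4 libraries before adhesion was left out, and was 19 without either replicate 1 or replicate 2 of WT after adhesion, 19 with only the 4 libraries compared, and 13 by DESeq2. The 7 were *Ext1*, *Ndst3*, *Chst7* and *Hbegf* (higher) and *Sulf2*, *Hpse* and *Fgfr1* (lower), all of them also among the 17. *Hpse*, and *Fgf7* among the 17, passed the filter on low counts only through their WT libraries. Their calls are thus no independent sign of a difference. The calls of the 17 outside the 7 hung on single libraries, as the counts that follow show. Leaving out replicate 1 or 2 of WT before adhesion lowered the count of 17 to 7 or 11. Leaving out replicate 2 of E6 before adhesion lowered it to 10, and leaving out replicate 1 or 2 of E6 after adhesion lowered it to 8 or 9.

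Among the genes that build and sulfate heparan sulfate, 2 of 10 tested were DE, both higher in E6. *Ext1*, a subunit of the polymerase, had 94.1 ± 11.3 CPM in WT and 155 ± 5.91 CPM in E6 (SD, n = 4 each; log2 FC 0.73, SE 0.09, FDR 0.00295, the quasi-likelihood test of edgeR, Benjamini-Hochberg adjusted). Its partner *Ext2* did not pass, with 77.2 CPM in WT and 86.5 CPM in E6. *Ndst3*, a brain-enriched N-deacetylase and N-sulfotransferase, had 2.00 and 1.69 CPM in WT before adhesion, 2.98 and 1.98 CPM in WT after adhesion, 8.53 and 7.60 CPM in E6 before adhesion, and 7.48 and 9.37 CPM in E6 after adhesion. The cell types did not overlap (log2 FC 1.95, SE 0.19, FDR 0.000978, edgeR). Its paralog *Ndst1* had 136 CPM in WT and 148 CPM in E6 and did not pass. None of the 5 tested genes of chain initiation and linkage was DE, with a median log2 FC of 0.38, and none of the 7 tested genes of sulfate donor supply, with a median of 0.02.

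Among 5 tested genes that edit or cleave the chains or shed the core proteins, 2 were DE and both were lower in E6. *Sulf2*, which removes 6-O-sulfate outside the cell, had 16.8 and 15.5 CPM in WT before adhesion, 17.2 and 13.98 CPM in WT after adhesion, 2.84 and 3.70 CPM in E6 before adhesion, and 3.05 and 2.93 CPM in E6 after adhesion. It fell 5.05-fold without overlap (log2 FC -2.34, SE 0.14, FDR 0.000233, edgeR). *Hpse*, the heparanase that cuts the chains, fell 4.21-fold, from 1.63 ± 0.214 to 0.389 ± 0.116 CPM (SD, n = 4 each; FDR 0.00271, edgeR). It had 19 to 34 counts per WT library and 4 to 9 per E6 library. As it passed the filter on low counts only through its WT libraries, none of its calls is an independent sign of a difference. *Sulf1*, the other sulfatase gene, had 414 CPM in WT and 363 CPM in E6 and did not pass, and neither did the sheddases *Adam10* and *Adam17*.

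Among 6 tested genes of other carbohydrate sulfotransferases, the group to which *Chst1* belongs, 2 were DE and both were higher in E6. *Chst7* had 14.7 ± 2.07 CPM in WT and 37.3 ± 2.93 CPM in E6 (SD, n = 4 each; log2 FC 1.34, SE 0.13, FDR 0.000989, edgeR). *Chst12*, which sulfates chondroitin and dermatan sulfate, had 13.5 ± 2.34 and 21.3 ± 1.95 CPM (log2 FC 0.65, FDR 0.0188, edgeR), a call that was lost after correction for GC content. Per kb of exon, *Chst1* at 4.12 ± 0.179 CPM per kb in E6 stayed under *Chst7* (16.9 ± 1.33) and *Chst12* (9.003 ± 0.825), and reached a level above those of *Chst14* (2.92 ± 0.133) and *Ust* (2.76 ± 0.265). In WT it had 0.151 ± 0.0262 CPM per kb, beside 0.241 ± 0.152 for *Chst4*, with overlapping libraries. Of the 6 tested genes of chondroitin and dermatan sulfate synthesis, only *Chpf2* was DE, from 11.5 ± 3.68 to 20.2 ± 0.354 CPM (FDR 0.0379, edgeR). Its lowest WT value of 6.10 CPM was that of replicate 1 of WT after adhesion. *Dse* was lower in E6 without overlap, from 46.5 ± 2.40 to 31.1 ± 1.86 CPM (FDR 0.00462, edgeR). Its log2 FC of -0.58 stayed just under the 1.5-fold limit. Of the 3 tested genes for keratan sulfate chains and carriers, the chains that Chst1 sulfates, *B4galt4* was DE and lower in E6 (log2 FC -0.62, FDR 0.0168, edgeR). Its log2 FC ran from -0.71 to -0.53 when 1 library was left out, and -0.53 is under the 1.5-fold limit.

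Among 5 other tested heparan sulfate proteoglycans, 3 were DE. *Hspg2*, which encodes perlecan of the basement membrane, had 394 ± 54.3 CPM in WT and 591 ± 24.3 CPM in E6 (SD, n = 4 each; FDR 0.0064, edgeR), a call lost after correction for GC content. *Cd44*, a hyaluronan receptor with heparan sulfate-bearing isoforms, rose from 482 ± 108 to 805 ± 42.7 CPM (FDR 0.0111, edgeR). *Col18a1*, a collagen with heparan sulfate chains, fell from 364 ± 92.1 to 225 ± 11.2 CPM (FDR 0.0306, edgeR), but its libraries overlapped, as replicate 1 of WT after adhesion had 226 CPM. Of the 7 syndecan cytoplasmic partners, *Sdcbp2*, the second syntenin gene, was DE and higher in E6 (log2 FC 0.93, FDR 0.015, edgeR), while *Sdcbp*, *Cask* and *Gipc1* had log2 FCs of 0.10, -0.09 and 0.10.

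Among 8 tested heparan sulfate-binding ligands, 3 were DE. *Hbegf*, an EGF receptor ligand, had 64.0 and 61.0 CPM in WT before adhesion, 67.7 and 68.9 CPM in WT after adhesion, 146 and 129 CPM in E6 before adhesion, and 157 and 135 CPM in E6 after adhesion. It rose 2.17-fold without overlap (FDR 0.000498, the quasi-likelihood test of edgeR, Benjamini-Hochberg adjusted). *Vegfa* rose 1.54-fold (FDR 0.0133, edgeR). Its log2 FC ran from 0.49 to 0.74 when 1 library was left out, and 0.49 is under the 1.5-fold limit. *Fgf7*, a fibroblast growth factor for epithelia, fell from 1.61 ± 0.627 to 0.366 ± 0.223 CPM (SD, n = 4 each, FDR 0.0109, edgeR). *Fgf7* had 18 to 34 counts per WT library and 3 to 9 per E6 library. It passed the filter on low counts through its WT libraries, so that its call is no independent sign of a difference. Of the 3 tested FGF receptor genes, 2 were DE in opposite directions. *Fgfr1*, whose signalling depends on heparan sulfate as a co-receptor, had 12.3 and 10.1 CPM in WT before adhesion, 8.01 and 8.46 CPM in WT after adhesion, 1.25 and 1.18 CPM in E6 before adhesion, and 0.838 and 0.836 CPM in E6 after adhesion. It fell 9.48-fold without overlap (log2 FC -3.24, FDR 0.000156, edgeR). *Fgfr3* rose from 1.76 ± 0.669 to 3.91 ± 0.853 CPM (FDR 0.0123, edgeR).

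**Figure D4:**
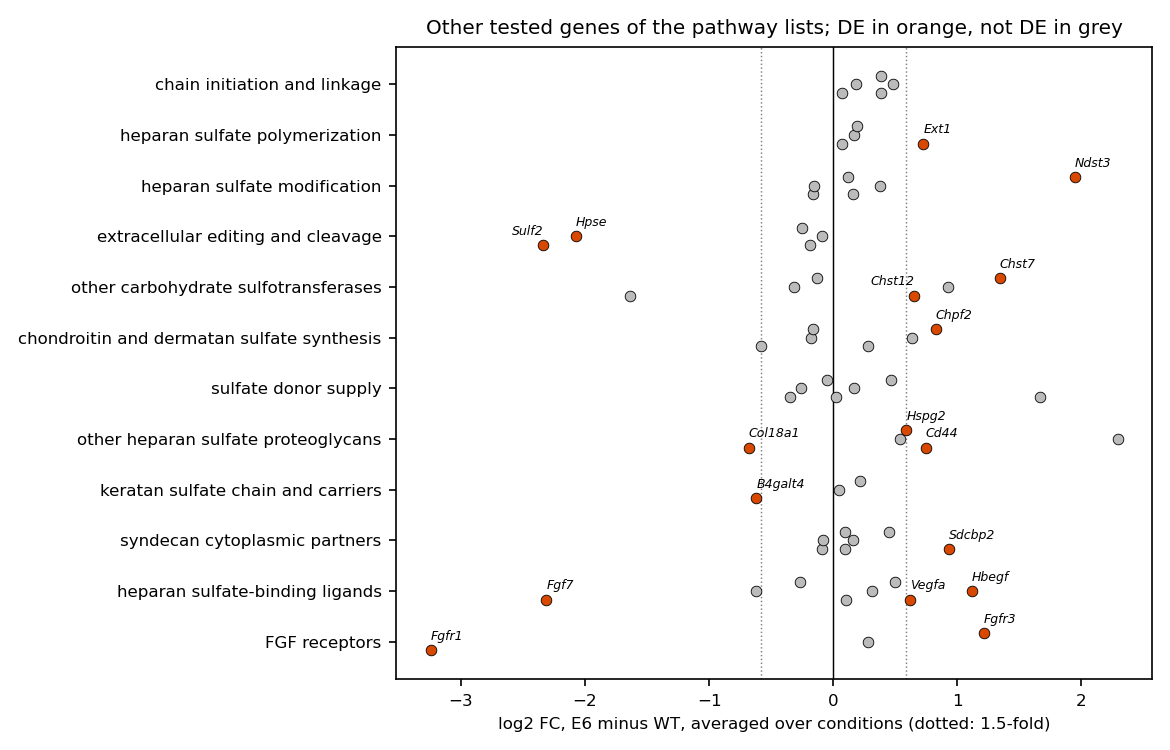
Log2 FC of E6 against WT, averaged over both conditions, for the 65 tested genes of the 12 lists (1 point per gene, 1 line per list), with the 17 DE mRNAs in orange and named and dotted lines at a 1.5-fold change. *Fgfr1*, *Sulf2*, *Fgf7* and *Hpse* lie farthest to the left and *Ndst3* is the DE mRNA farthest to the right.

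After adhesion, 1 of the 65 genes was DE when averaged over both cell types (beside 1.89% of all tested genes), and DESeq2 called 2. This gene was *Srgn*, which encodes serglycin, the proteoglycan of secretory granules in blood cells. It had 0 and 0 counts in WT before adhesion, 5 and 8 in WT after adhesion, 1 and 0 in E6 before adhesion, and 39 and 22 in E6 after adhesion. It passed the filter on low counts only through the 2 libraries in which it was highest, so that its call is no independent sign of a difference. Its counts followed the order of the thymocyte markers, highest in E6 after adhesion, and their part in this result was not tested. *Srgn* was still called without replicate 1 of WT after adhesion, 6 genes were called without replicate 2 of it, and none was called when any of the other 6 libraries was left out.

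For 7 of the tested genes the most similar pattern over the 8 libraries was sought among tested genes whose mean log2 CPM was 1 or more, by Pearson's r of log2 CPM, as a description only, since all points share libraries and cell types. For *Gpc4* these were *Timp3* (r = 0.999; 356 ± 56.7 CPM in WT and 9.46 ± 0.353 CPM in E6; SD, n = 4 each) and *Col12a1* (r = 0.997; 280 ± 6.19 and 160 ± 2.84 CPM), both genes of the extracellular matrix. For *Chst1* they were *2900026A02Rik* (r = 0.999; 123 ± 2.77 and 221 ± 4.05 CPM) and *Cntfr* (r = 0.998; 6.65 ± 0.474 and 22.01 ± 0.663 CPM), the receptor gene of ciliary neurotrophic factor, and for *Sdc3* *Fhl3* (r = 0.998; 30.0 ± 1.29 and 46.6 ± 1.24 CPM). None of these was at 0 in E6 as *Gpc4* was. *Gpc1* was most like *Tcf25* (r = 0.996), *Gpc6* most like *Copz1* (r = 0.990) and *Sdc2* most like *Trps1* (r = 0.962). In these 3 pairs replicate 1 of WT after adhesion held an extreme value of both genes. *Sdc4*, which varied least, reached no more than r = 0.841, with *Zfp109*.

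The low or high values of replicate 1 of WT after adhesion were set against the GC content of the longest transcript of each gene. Relative to the mean of the 3 other WT libraries, its log2 ratio was -1.29 for *Gpc1* (59.1% GC), -0.83 for *Sdc1* (55.2%), -0.30 for *Sdc3* (58.7%) and -0.25 for *Chst1* (57.3%). It was 0.04 for *Sdc4* (49.3%), 0.14 for *Gpc4* (50.8%), 0.27 for *Sdc2* (41.6%) and 0.31 for *Gpc6* (45.7%). *Gpc1*, *Sdc1* and *Sdc3* were thus lower in that library than in any other WT library. *Chst1* was not, as its lowest WT level was that of replicate 2 of WT after adhesion (0.339 CPM, against 0.355 CPM), on 5 to 8 counts per library. A smooth-curve correction for GC content moved the adhesion log2 FC in WT from -0.58 to -0.51 for *Gpc1* and from -0.32 to -0.24 for *Sdc1*, which was less than leaving the library out.

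**Figure D5:**
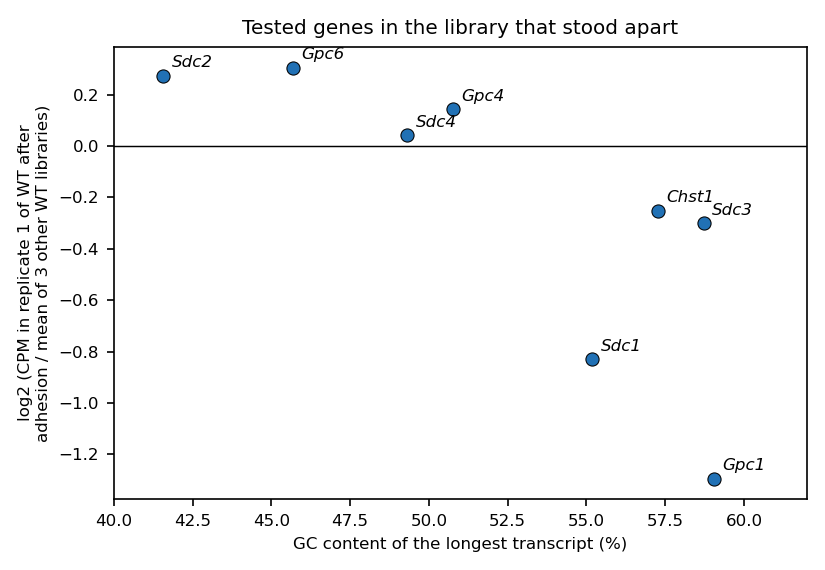
Log2 ratio of the level in replicate 1 of WT after adhesion to the mean of the 3 other WT libraries (vertical axis) against the GC content of the longest transcript in percent (horizontal axis), with 1 point for each of the 8 tested genes. *Gpc1* lies lowest at -1.29 and *Gpc6* highest at 0.31.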

How the data were processed

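RNA-Seq was available for 8 libraries of WT mTEC 3.10 cells and clone E6, grouped by the cell type and co-culture in their titles and source names. The authors aligned paired-end reads to mm10 with STAR 2.5.0a and deposited unnormalised HTSeq read counts, 1 value per gene and library. The gene annotation and the strand setting of the counting are not given in the sources used here, so reads of overlapping or antisense genes may not be told apart. The labels name a stranded mRNA library kit and the methods of the study a total RNA kit. Rows that name no gene were left out. They held 8.26 to 15.2% of alignments with no feature, 0.641 to 0.832% ambiguous ones and 11.7 to 17.5% that were not unique. In replicate 1 of E6 before adhesion, 18 symbols stored as dates were restored from the row order.

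The 9 genes, the 12 lists and the markers were chosen with earlier results of these data known. Named besides the 9 genes are the DE mRNAs of each list, the 3 nearest genes on either side of *Gpc4* and *Chst1*, and for each tested gene the 1 or 2 genes most correlated with it. 1 gene that this rule names is not reported here. Counts were fitted with edgeR 4.0.16 in R 4.3.3 (filterByExpr, TMM, quasi-likelihood test, 1 mean per condition, all 8 libraries), with Benjamini-Hochberg FDR over 11672 genes. DE mRNAs had an FDR below 0.05 and a 1.5-fold or larger change. The procedure was tested on simulated counts. Standard errors were derived from the test statistic and can be too small where counts are low. Log2 CPM used a prior count of 2. Depth was 13506610 to 20145154 counts, and 3 counts correspond to 0.145 to 0.221 CPM. Lengths, GC content and positions came from GENCODE vM21 on GRCm38, and upstream windows from RefSeq on GRCm38.p6 (6 of the 9 genes matched). p-values measure only the spread between these libraries.

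Alternatives were DESeq2 1.42.0, RLE size factors, no filter, a replicate block, GC correction (lowess span 0.3, limma 3.58.1), only the 4 libraries compared, and leaving out each library. Isoforms and the other assays of the study were not analysed here.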

Additional observations from a re-analysis of the deposited data

Results flagged for a closer look

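In the 16 groups of 4 libraries examined for the 8 tested genes (WT or E6), 3 held a library whose gap to its nearest neighbour was large for the range of the group. Chance gives about 1 in 20 such groups where the 4 libraries are of the same kind. These groups mixed culture times and libraries before and after adhesion, so that rate is only a rough guide. The groups also shared libraries, and that of *Gpc4* in E6, without counts, could not be flagged. All 3 flagged libraries were replicate 1 of WT after adhesion among the WT libraries. Its gap took 0.864 of the range for *Gpc1* (192 CPM), 0.915 for *Sdc1* (135 CPM) and 0.891 for *Gpc6* (35.0 CPM). The first 2 values were low and the last was high. The same library had 66.7% of its alignments on genes and a GC slope of -0.46 on the log2 scale per 10 points, and the part of these in the 3 values was not tested.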

How the results depend on the processing

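With 2 libraries per condition, a single library moved several counts. Counts of DE mRNAs among the 8 tested genes, 0 in each adhesion comparison, ranged over 0 to 1 (averaged), 0 to 2 (WT) and 0 to 2 (difference) when 1 library was left out, the higher values coming without replicate 2 of WT after adhesion. With all libraries, 3 of the 8 tested genes had an FC of at least 1.5 between E6 and WT. This count is a description only, as this comparison chose the genes. The share of all tested genes with such an FC was not taken, so whether 3 of 8 is unusual was not tested. Without replicate 2 of WT after adhesion the log2 FC moved from 0.38 to 0.76 for *Gpc1* and from 0.43 to 0.69 for *Sdc1*. Of the 65 listed genes, 17 were DE between E6 and WT averaged, with a range of 7 to 20. Before adhesion 7 were DE, against 13 by DESeq2, 13 with GC correction, 12 with GC correction and replicate block, 19 with only the 4 libraries compared, and 2 to 19 when 1 library was left out. The count was 2 without any 1 of the 4 libraries before adhesion and 19 without either WT library after adhesion. For adhesion averaged, 1 was DE, against 2 by DESeq2, 0 with the replicate block, 0 with GC correction and replicate block, and 0 to 6 when 1 library was left out. The replicate numbers were not used to pair the samples in the main fit. Correlations of same-numbered deviations lay between -0.08 and 0.22. Only that of WT before with WT after adhesion (0.22) was above the minimum of 0.1 set for pairing. The replicate block called 18 of the 65 genes between E6 and WT, 17 of them shared with the fit without it. For single genes, 723 alternative values kept their side of the threshold or, where no test was made, stayed within the spread, 64 lost a call, 5 gained one and 20 moved beyond the spread. No called value changed sign, but some small values without a call did, among them the adhesion log2 FC of *Sdc1* in WT (-0.32, and 0.04 without replicate 1 of WT after adhesion), that of *Gpc6* averaged (-0.02, and up to 0.05) and the difference of the adhesion effects for *Gpc1* (0.36, and down to -0.10). Genes with few counts, such as *Gpc3* and, in WT, *Chst1*, limit what the depth can show.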
